A study of Danio rerio with 4 samples.

Results

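The genes described are 10 members of the haem synthesis pathway: alas1, alas2, alad, hmbsb, uros, urod, cpox, ppox, fech and the iron carrier gene slc25a37. They were taken by symbol, each symbol had a row, and they are 10 of the 24235 genes in the deposited table. alas2 and slc25a37 were treated as the red-cell-specific steps and the other 8 genes as housekeeping steps. RNA sequencing covered 2 libraries of embryos homozygous for the npas4l allele bns297 (the labels' Npas4l-KO) and 2 libraries of wild-type AB embryos; all were whole zebrafish at 6 somites, raised in E3 medium at 28 °C, and the labels name no other treatment. npas4l encodes a bHLH-PAS transcription factor needed for most endothelial and blood cells, and mutants were compared with wild type to find RNAs that need it. Each library took 10 ng of total RNA through a stranded kit and was sequenced in single 75-base reads. How many embryos or clutches made up a library is not in the labels, so p-values measure only the spread between these libraries, which may be technical. The RNA of npas4l was not analysed here, and the genotype labels were therefore not checked with it.

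Haem is the iron-holding ring that carries oxygen in haemoglobin and electrons in cytochromes. Every cell makes some, but developing red cells make it in bulk, and for this they switch on alas2, the erythroid form of the first enzyme, and slc25a37, which encodes mitoferrin 1, the carrier that brings iron into their mitochondria. The pathway opens in the mitochondrion, runs through the cytosol, and closes in the mitochondrion where ferrochelatase inserts iron. Zebrafish with mutations in alas2 (sauternes), urod (yquem), ppox (montalcino), fech (dracula) or slc25a37 (frascati) have anaemia or light-sensitive red cells.

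None of the 10 genes passed the test in npas4l mutants. A normalised value is the deposited number, a gene count scaled by 1 factor per library and rounded; differences were tested by limma on log2(value + 1), and a gene passed at a Benjamini-Hochberg adjusted p under 0.05 over the 16653 genes averaging 10 or more, which all 10 members did. Of all genes tested, 8 passed, or 0.048% (0.006% higher and 0.042% lower in mutants), so that 0 calls among 10 is close to the background. With limma 0 of the 10 had an unadjusted p under 0.05, against 3.75% of all genes tested. With limma-voom, which passed 0.0661% of all genes, 0 members had an unadjusted p under 0.05 and 0 passed. The fitted changes ran from -0.33 for alas2 to 0.39 for ppox on the log2 scale, 5 were above 0 and 5 below, and their median was 0.00, beside -0.02 over all genes tested. The summed value of the 10 genes was 849 and 874 in the mutant libraries, against 870 and 820 in the wild-type libraries.

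**Figure D1:**
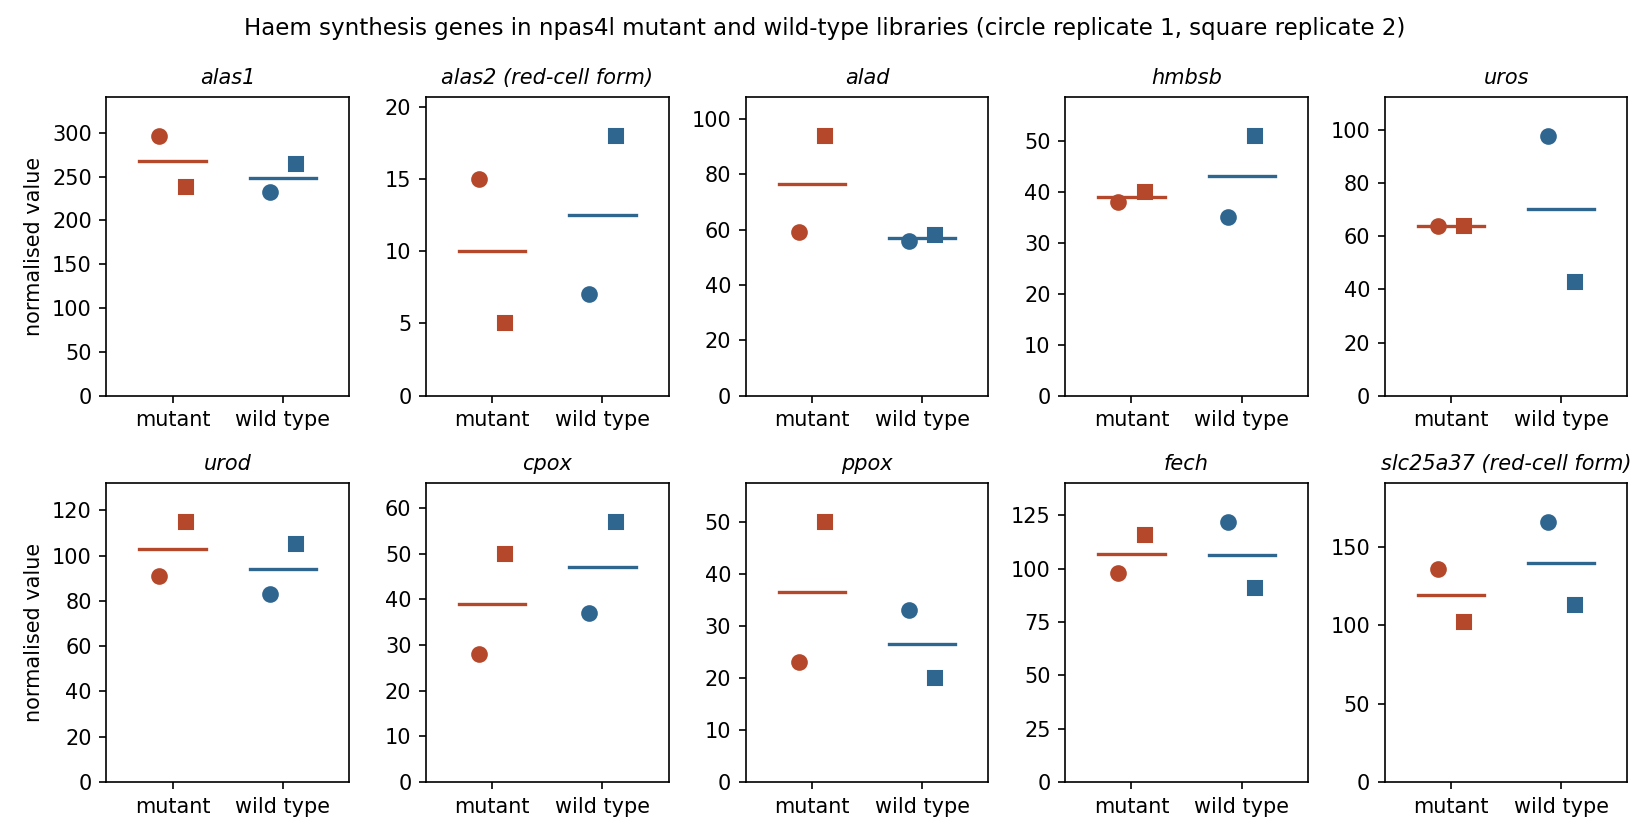
Normalised value (vertical axes, each from 0) of the 10 haem synthesis genes in the mutant and wild-type libraries, with circles for replicate 1, squares for replicate 2 and a line at each group's mean. In 9 panels the groups overlap, and in alad the mutant libraries at 59 and 94 lie above the wild-type libraries at 56 and 58.

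The libraries differed in ways the genotype does not follow. Values summed to between 7272902 and 8237748 per library, about 7210000 to 9020000 reads in genes by the spacing of the values. Mutant replicate 2 stood apart: 299 of its genes had a value of 0, while the other libraries had 2444 to 3000 such genes, and it lay alone on the first principal component (50.3% of the variance). Its values were raised among lowly read genes. Where the other 3 libraries averaged 10 to 20, it was higher by a median of 0.55 on the log2 scale (2225 genes), and where they averaged 100 to 400 it was lower, at -0.11 (4794 genes). For the members whose change turned or shrank most without this library, the value without it is given as well.

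The first step joins glycine and succinyl-CoA into aminolaevulinic acid. alas1 (ENSDARG00000021059, chromosome 11, 241309 to 250756, minus strand, GRCz10 as for all coordinates here) encodes the enzyme used in all tissues. It had normalised values of 297 and 238 in mutants, against 233 and 264 in wild type. Both wild-type values lay next to or inside the mutant range, and the groups overlapped. Its log2 fold change was 0.10 ± 0.18 (SE, n = 2 libraries in each group here and below) with a 95% interval of -0.26 to 0.46 and a limma adjusted p of 1. In linear terms the interval ran from 0.835 to 1.37 times the wild-type level, the narrowest of the 10.

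alas2 (ENSDARG00000038643, chromosome 8, 21321581 to 21338183, plus strand) is the form that red cells use. It stood at 15 and 5 in mutants and at 7 and 18 in wild type. Each group held 1 low and 1 high library, and both pairs of replicates lay further apart (1.42 and 1.25 on the log2 scale, mutants and wild type) than the group means (0.33). The counting intervals of the replicates overlapped in both groups: read as whole reads, the 95% exact Poisson intervals on the value scale were 8.25 to 24.3 and 1.64 to 11.8 in the mutant libraries and 2.4 to 14.2 and 11 to 27.7 in the wild-type libraries. Such intervals cover counting error only, and their overlap does not show that the replicates differed by no more than that. The log2 fold change was -0.33 ± 1.09 with an adjusted p of 1, and its interval, -2.50 to 1.83, holds both a loss to 0.177 of the wild-type level and a gain to 3.57 times it. Its direction turned with 1 library: the change was 0.38 without mutant replicate 2 and 0.29 without wild-type replicate 2, but -1.04 without mutant replicate 1, and with quantile normalization it was -1.29. At this standard error, matching the significance of the weakest of the 8 genes that passed needed a log2 change of 5.24. From wild-type values of 7 and 18, even no reads in both mutant libraries would give a smaller change than this on log2(value + 1). alas2 could therefore not have passed as lower, and its not passing says nothing about a loss.

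The next steps run in the cytosol. alad (ENSDARG00000100372, chromosome 5, 53836383 to 53850726, minus strand) encodes the dehydratase that joins a pair of aminolaevulinic acid molecules into porphobilinogen. It stood at 59 and 94 in mutants and at 56 and 58 in wild type, and was the 1 member of the 10 whose groups did not overlap; over all genes tested 29.4% did not overlap, 13.3% with both mutants above. The separation was narrow, since mutant replicate 1 exceeded the higher wild-type library by a single unit. The log2 fold change was 0.38 ± 0.31 with an adjusted p of 1, and it was 0.05 without mutant replicate 2. In that library alad lay 0.70 above the mean of the other 3 on the log2 scale, beyond the 95th percentile (0.62) of genes whose mean in those libraries was 50 to 100.

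hmbsb (ENSDARG00000055991, chromosome 15, 23576105 to 23594680, minus strand) encodes hydroxymethylbilane synthase, which strings porphobilinogen into a linear tetrapyrrole. Its values were 38 and 40 in mutants and 35 and 51 in wild type, with both mutant libraries inside the wild-type range, and its log2 fold change was -0.11 ± 0.41 (adjusted p of 1). It overlaps si:dkey-182i3.8 and si:dkey-182i3.9 on the other strand. The libraries came from a stranded kit, but no source used here says whether counting used the strand, so reads of these genes could have been shared. Its paralogue hmbsa, not a member, stood at 135 and 91 in mutants and at 106 and 84 in wild type.

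uros (ENSDARG00000027491, chromosome 12, 48749948 to 48759135, minus strand) encodes the synthase that closes the ring. It stood at 64 and 64 in mutants and at 98 and 43 in wild type. The mutant libraries were equal while the wild-type libraries differed beyond counting error, with Poisson intervals of 78.8 to 120.5 and 31.8 to 57.1. On the log2 scale the fold change was -0.02 ± 0.32 (adjusted p of 1). That standard error was drawn toward genes of similar value, so it shows little of the wild-type spread: the change was 0.56 without wild-type replicate 1 and -0.61 without wild-type replicate 2.

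urod (ENSDARG00000006818, chromosome 2, 27900534 to 27920169, minus strand) encodes the decarboxylase that completes the cytosolic part. It had 91 and 115 in mutants, against 83 and 105 in wild type, and a log2 fold change of 0.13 ± 0.26 (adjusted p of 1). The values interleaved between the groups, with mutant replicate 2 the highest and wild-type replicate 1 the lowest, and the change was -0.037 without mutant replicate 2.

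The last steps return to the mitochondrion. cpox (ENSDARG00000062025, chromosome 8, 18566030 to 18583221, minus strand) encodes coproporphyrinogen oxidase, and stood at 28 and 50 in mutants and at 37 and 57 in wild type. Its log2 fold change was -0.29 ± 0.41 (adjusted p of 1), and both groups held 1 lower and 1 higher library. ppox (ENSDARG00000102167, chromosome 16, 42335295 to 42402886, minus strand) encodes protoporphyrinogen oxidase, and stood at 23 and 50 in mutants and at 33 and 20 in wild type. Mutant replicate 2 alone was high, beyond counting error from mutant replicate 1 (Poisson intervals 37.4 to 66.5 and 14.3 to 33.9).

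The log2 fold change of ppox was 0.39 ± 0.51 (adjusted p of 1), the highest of the 10, and it was -0.15 without mutant replicate 2. Its annotated span of 67592 bases was the longest of the 10, and oxr1a on the other strand overlapped 57779 of them, so its count may include reads of oxr1a. oxr1a stood at 33 and 32 in mutants and at 27 and 18 in wild type, and whether its reads were counted for ppox was not tested.

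fech (ENSDARG00000003462, chromosome 21, 1622034 to 1648691, plus strand) encodes ferrochelatase, which puts iron into the finished ring. It had 98 and 116 in mutants, against 122 and 91 in wild type. Both mutant libraries lay within the wild-type range, and the log2 fold change was 0.02 ± 0.25 (adjusted p of 1), with an interval of -0.48 to 0.51; it was -0.10 without mutant replicate 2. A change of 2.29-fold would have been as significant at this standard error as the weakest gene that passed.

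slc25a37 (ENSDARG00000073743, chromosome 8, 50202096 to 50229269, plus strand) supplies the iron for that step in red cells. It stood at 136 and 102 in mutants and at 166 and 113 in wild type. In each genotype replicate 1 was the higher library, the 2 wild-type libraries differed beyond counting error (Poisson intervals 140.3 to 194.0 and 94.2 to 134.7), and the groups overlapped. The log2 fold change was -0.22 ± 0.23 with an interval of -0.68 to 0.25 (adjusted p of 1), which in linear terms is 0.624 to 1.19 times wild type. This change was 0.06 without wild-type replicate 1 and -0.01 without mutant replicate 2. Its paralogue slc25a28, which encodes the mitoferrin of other tissues, stood at 215 and 155 in mutants and at 158 and 176 in wild type.

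**Figure D2:**
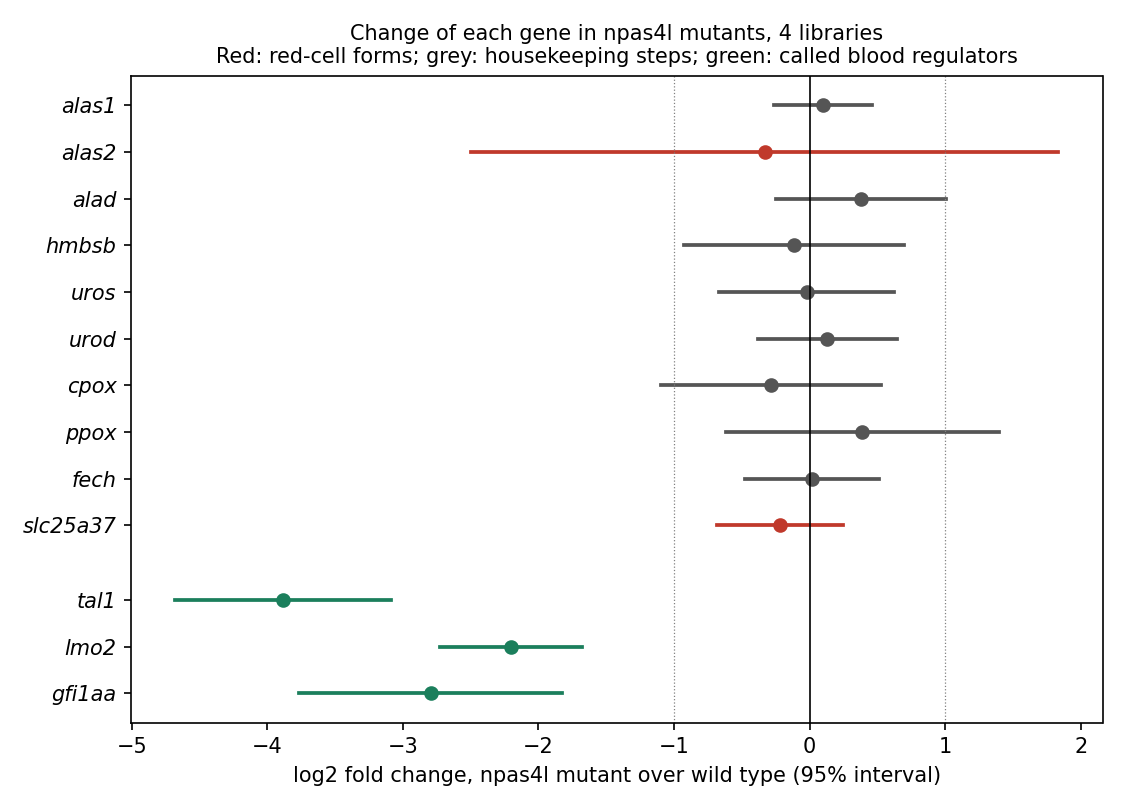
log2 fold change of mutants over wild type (horizontal axis) with its 95% interval from limma for the 10 haem synthesis genes. Below them are tal1, lmo2 and gfi1aa, the genes of the primitive erythroid list that passed. Dotted lines mark a change of 1 either way. All 10 intervals of the haem synthesis genes cross 0, and alas2 has the widest, from -2.50 to 1.83.

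In all 10 genes the group means were closer on the log2 scale than the wider pair of replicates, which also held for 81.0% of all genes tested. The intervals of alas1, hmbsb, uros, urod, fech and slc25a37 lay inside a change of 1 on the log2 scale in either direction, and those of alas2, alad, cpox and ppox reached past it. Of the 20 pairs of replicates, 3 differed so far that their Poisson intervals lay apart: wild type in uros, wild type in slc25a37 and mutants in ppox. This is a strict rule, and overlap does not show that a pair differed by counting error alone. The mutant intervals of alad, 45.0 to 75.9 and 75.7 to 115.0, barely overlapped. Mutant replicate 2 was the highest library in alad, urod and ppox and the lowest in alas2 and slc25a37. alas2 was 1.16 lower there than the mean of the other 3 libraries on the log2 scale, past the 5th percentile (-0.91) of genes at that level.

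**Figure D3:**
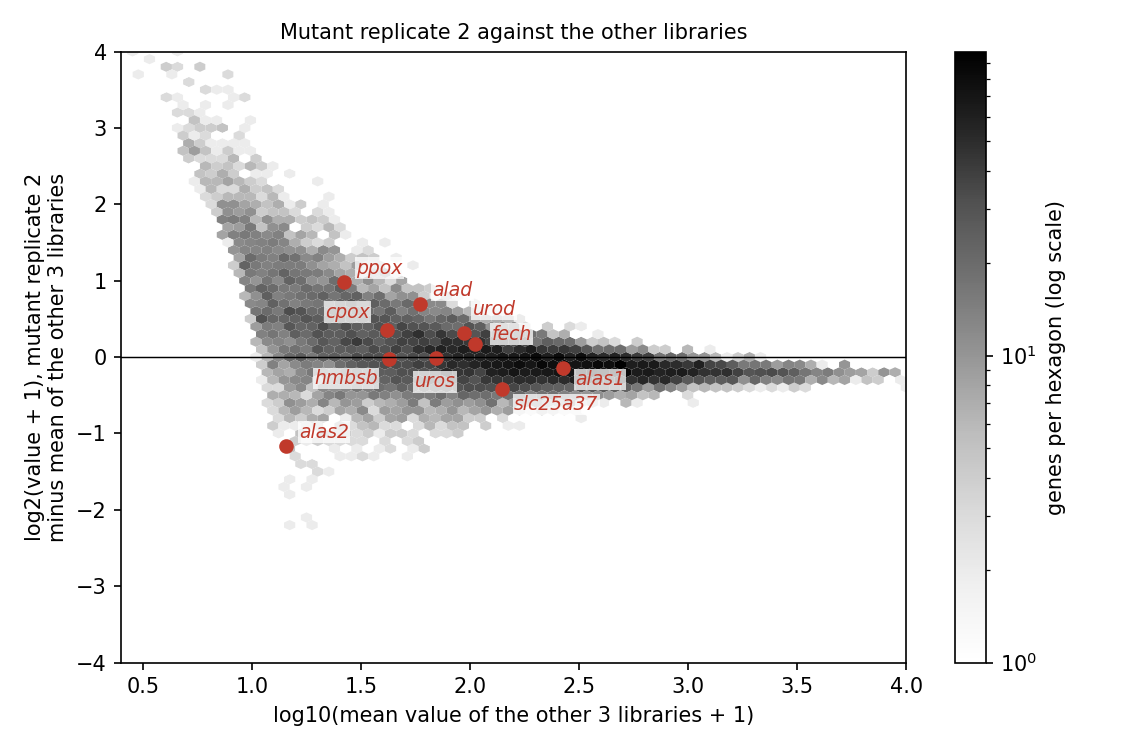
log2(value + 1) in mutant replicate 2 minus its mean in the other 3 libraries (vertical axis) against the mean value of those 3 libraries (horizontal axis, log10 of the mean + 1), for the genes tested (grey hexagons; 87 genes lie outside the axes) and the 10 haem synthesis genes (red points). Genes averaging under 10 in those 3 libraries were kept only where this library lifted their mean over all 4, ppox and alad are at 0.98 and 0.70, and alas2 is at -1.16.

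Red-cell-specific steps were then set against housekeeping steps within each library. The mean log2(value + 1) of alas2 and slc25a37 minus that of the 8 housekeeping genes was -0.45 and -1.73 in mutants and -0.95 and -0.53 in wild type. The mutant libraries lay on either side of both wild-type libraries, with mutant replicate 2 the lowest of the 4. The group means were -1.09 ± 0.90 in mutants and -0.74 ± 0.30 in wild type (SD, n = 2 each), a difference of -0.35, smaller than the SD among mutants. Without mutant replicate 2 the difference was 0.29, so its sign rested on that library, and with quantile normalization it was -0.80. In the red-cell mean alas2, with values of 5 to 18, weighed as much as slc25a37. slc25a37 alone minus the 8 housekeeping genes was 1.09 and 0.32 in mutants and 1.24 and 0.76 in wild type. The group means of that number differed by -0.29. Mutant replicate 1, at 1.09, lay above the wild-type mean of 1.00, so this sign too rested on mutant replicate 2. All these numbers compare libraries and not genes, since values are not per length.

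The erythroid and the general form of the first enzyme were also set against each other. alas2 stood at 5.05 and 2.10 for each 100 units of alas1 in mutants, and at 3.0 and 6.82 in wild type. On the log2 scale alas2 minus alas1 averaged -4.77 ± 0.78 in mutants and -4.34 ± 0.76 in wild type, a difference of -0.43 with an exact two-sided permutation p of 0.667 over the 4 libraries, where the smallest p that 2 against 2 can give is 0.333. Without mutant replicate 2 the difference was 0.12, without wild-type replicate 2 it was 0.10, and with quantile normalization it was -1.44.

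**Figure D4:**
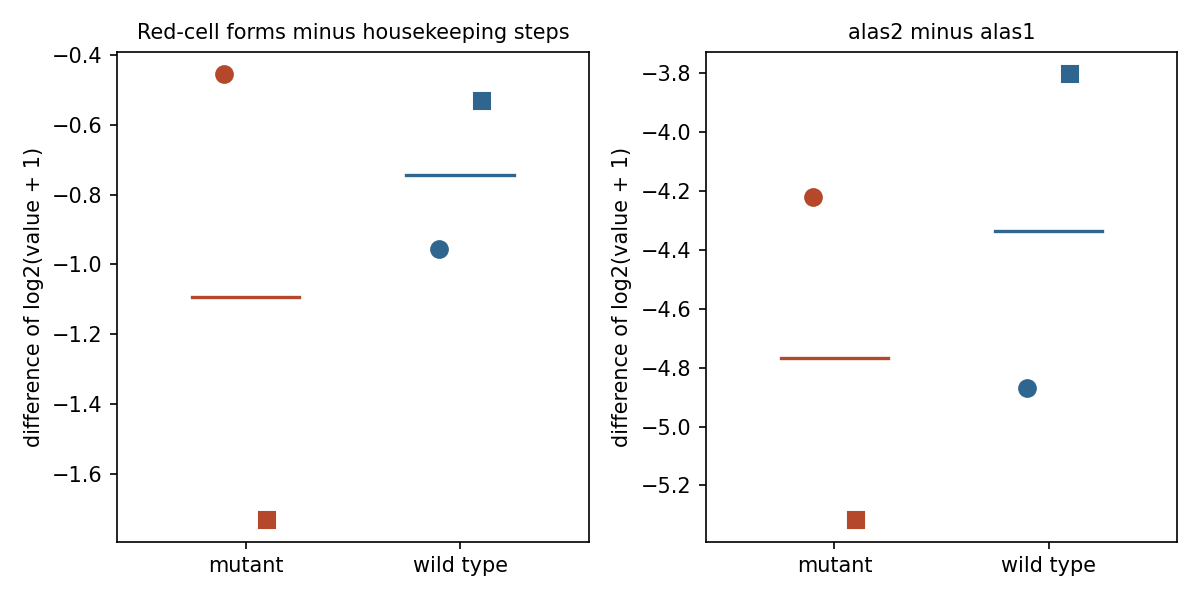
Difference of log2(value + 1) in each library (vertical axes), for the mean of alas2 and slc25a37 minus the mean of the 8 housekeeping genes on the left and for alas2 minus alas1 on the right, with circles for replicate 1, squares for replicate 2 and lines at group means. On the left the mutant libraries, at -0.45 and -1.73, enclose the wild-type libraries, at -0.95 and -0.53.

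In the same libraries 3 regulators of the blood programme fell. The primitive erythroid list had 18 rows for its 26 symbols, of which 13 averaged 10 or more and were tested. Of these, 3 fell, 0 rose and 10 did not pass, while 0.042% of all genes tested fell and 0.006% rose. The list was chosen with earlier results of these data known, so these counts are a description and not a test of it. Both mutants lay below both wild-type libraries in 5 of the 13 and above them in 1. Over all genes tested those shares were 16.1% and 13.3%. The filter on the average shaped the counts in this list. gata1a, among those below, reached an average of 10 through its wild-type values. The untested gfi1b, drl, slc4a1a and si:dkey-25o16.2 had both mutants above both wild-type libraries. No lean in either direction was therefore read from these counts. The list had a median log2 fold change of -0.18. That median was the value of klf17, which stood at 524 and 398 in mutants and at 466 and 572 in wild type. How much of the list's RNA came from red cells in these whole embryos was not tested. The 3 genes that fell were therefore not taken as a measure of red cells or of the whole list. tal1, a bHLH factor needed for blood progenitors, stood at 13 and 8 in mutants and at 166 and 163 in wild type (log2 fold change -3.88 ± 0.40, limma adjusted p of 3.27e-11). lmo2, which encodes its LIM-domain partner, stood at 61 and 33 in mutants and at 210 and 211 in wild type, and gfi1aa, a repressor of early red cells, at 12 and 10 in mutants and at 73 and 92 in wild type (log2 fold change -2.79 ± 0.49). gfi1aa did not pass with limma-voom (log2 fold change -2.79, adjusted p = 0.516), without wild-type replicate 1 (-2.96, adjusted p = 1) or without wild-type replicate 2 (-2.63, adjusted p = 1), while its fold change stayed about as large. In bulk RNA, fewer cells of a type and less RNA per cell cannot be told apart.

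Values of 3 more erythroid genes, chosen after they were seen, follow, and then those of the list's other untested rows. gata1a, the GATA factor that activates alas2 and the globins, stood at 3 and 11 in mutants and at 14 and 20 in wild type, with a log2 fold change of -1.36 ± 1.08 (adjusted p of 1). hbae3, an embryonic alpha globin gene, stood at 6 and 10 in mutants and at 17 and 7 in wild type. slc4a1a, which encodes the anion exchanger of the red-cell membrane, stood at 6 and 20 in mutants and at 2 and 0 in wild type. slc4a1a averaged 7 and was not tested, and its 20 was in mutant replicate 2, where lowly read genes were raised. The list's other untested rows were gfi1b, drl, si:dkey-25o16.2 (hemgn) and klf1. gfi1b stood at 9 and 12 in mutants and at 4 and 4 in wild type, and drl at 5 and 2, against 0 and 1. si:dkey-25o16.2 stood at 7 and 11 in mutants and at 3 and 6 in wild type, and klf1 at 0 and 12, against 0 and 1. Of the tested erythroid genes that did not pass, the smallest p-values belonged to nfe2, epb41b and sptb, with log2 fold changes of 0.72, 0.96 and 1.65. sptb and epb41b were highest in mutant replicate 2, at 51 and 58, and without it their changes were 0.30 and 0.11. The average of sptb reached 10 only through that library, since its values elsewhere were 7 in mutants and 2 and 13 in wild type. nfe2 overlaps lima1a on the other strand.

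Around the pathway, 6 lists of genes for carriers, haem traffic, iron, iron-sulphur clusters, haem use and haem sensing held 79 tested genes of 89 rows. 0 rose, 0 fell and 79 did not pass with limma, limma-voom called 0, and 1 had an unadjusted p under 0.05. Their median log2 fold change was -0.03. Both mutants lay above both wild-type libraries in 14 of the 79 genes and below them in 9. Over all genes tested the shares were 13.3% above and 16.1% below, so the separations named below are of a common kind.

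**Figure D5:**
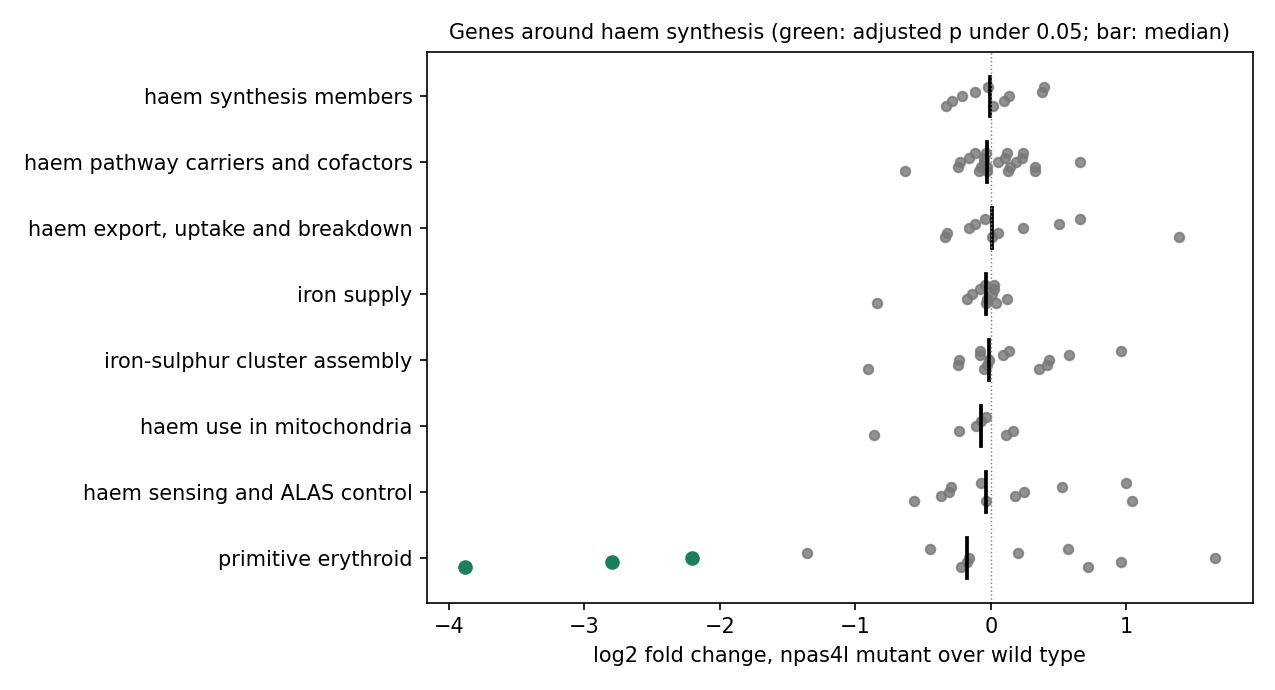
log2 fold change of mutants over wild type (horizontal axis) for each tested gene of the haem synthesis set, the 6 surrounding lists and the primitive erythroid list, with black bars at list medians and green points for genes that passed. The medians of the haem and iron lists lie between -0.08 and 0.01, and the green points are tal1, gfi1aa and lmo2.

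Among 23 carriers and cofactors of haem synthesis the median was -0.03. slc25a38b, a mitochondrial glycine carrier paralogue, stood at 43 and 48 in mutants and at 88 and 57 in wild type (log2 fold change -0.63 ± 0.34, adjusted p of 1), so that the mutants lay below. abcb6a, a porphyrin transporter gene, stood at 65 and 49 in mutants and at 32 and 39 in wild type (0.66 ± 0.39), above. clpp, the peptidase partner of the unfoldase that acts on ALAS, was at -0.25 ± 0.18 and overlaps other genes.

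Among 11 genes of haem export, uptake and breakdown the median was 0.01. abcg2a, related to a mammalian porphyrin exporter, stood at 16 and 28 in mutants and at 8 and 7 in wild type (1.39 ± 0.90, adjusted p of 1), and its low level makes the change imprecise. flvcr2b, of the family of FLVCR transporters, and blvra, a biliverdin reductase gene, were at 0.66 ± 0.50 and 0.24 ± 0.26. Of the haem oxygenase genes, which open the ring again, hmox1a stood at 61 and 88 in mutants and at 87 and 61 in wild type.

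Among 12 iron supply genes the median was -0.03. tfa, which encodes transferrin, stood at 5070 and 4332 in mutants and at 4933 and 5393 in wild type (-0.14 ± 0.15, adjusted p of 1). It passed as lower only where mutant replicate 1 was left out. The transferrin receptor of red cells, tfr1a, averaged under 10 and was not tested, at 7 and 14 in mutants and 8 and 5 in wild type. Its paralogue tfr1b stood at 186 and 195 in mutants and at 170 and 181 in wild type. The ferritin gene fth1b and the iron exporter gene slc40a1 were at -0.84 ± 0.89 and -0.17 ± 0.26.

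Iron-sulphur cluster assembly shares mitochondrial iron with haem synthesis, and 15 of its genes were tested, with a median of -0.02. fxn, which encodes frataxin, held the 1 unadjusted p under 0.05 (0.0385) in the 6 lists. It stood at 55 and 41 in mutants and at 22 and 26 in wild type, a log2 fold change of 0.96 ± 0.46 with a limma adjusted p of 1, and tjp2b overlaps it on the same strand. nfs1, the cysteine desulphurase gene, was at 0.43 ± 0.24 and fdxr, the ferredoxin reductase gene, at 0.42 ± 0.27, each with both mutants above both wild-type libraries.

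Of 7 genes for haem use in mitochondria, with a median of -0.08, hccsa.1, which attaches haem to cytochromes c, stood at 13 and 21 in mutants and at 38 and 25 in wild type (-0.86 ± 0.60, adjusted p of 1). cox10, the first enzyme of haem A synthesis, was at -0.24 ± 0.23, and cycsb, a cytochrome c gene, at -0.11 ± 0.14. Of 11 haem-sensing genes and regulators of ALAS, with a median of -0.04, the haem-binding repressors bach1a and bach1b stood at 54 and 33, and at 99 and 104, in mutants, against 64 and 62, and 134 and 128, in wild type. Both lay below in mutants, at -0.57 ± 0.36 and -0.36 ± 0.24, with adjusted p of 1. Without mutant replicate 2 bach1a was at -0.22 and bach1b at -0.40. nfe2l2a, which encodes the stress factor that Bach1 opposes in mammals, was at 0.53 ± 0.35.

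Of the 114 other tested genes of all these lists, ISCU, isca1 and klf17 had patterns most like alas2 over the 4 libraries, with root mean square differences of 0.36, 0.49 and 0.50 in centred log2(value + 1). klf17 encodes a Krüppel-like factor and isca1 an iron-sulphur carrier. ISCU, the scaffold of iron-sulphur clusters, stood at 275 and 129 in mutants and at 175 and 226 in wild type, so that like alas2 it was lowest in mutant replicate 2. A likeness over 4 libraries is a description only.

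Markers of other tissues in the whole embryo gave the setting. Of 8 primitive myeloid rows 4 were tested and 0 passed (median 0.14), with csf1ra, cebpa and cybb at 1.73 ± 1.29, 0.11 ± 0.18 and 0.17 ± 0.42. csf1ra stood at 11 and 21 in mutants and at 7 and 2 in wild type. Its average reached 10 only through mutant replicate 2, and without that library its change was 1.29. The myeloid genes spi1b, mpx, coro1a and mpeg1.1 averaged under 10 and were not tested. Of 9 genes tested from the yolk syncytial layer list 0 passed limma (median -0.10), and limma-voom passed apobb.1 as lower (adjusted p = 0.00222). In that list gata5, apoa2 and apobb.1 were at -0.28 ± 0.17, -0.18 ± 0.14 and -0.20 ± 0.20. Without mutant replicate 2 the limma change of apobb.1 was -0.096. Summed values of that list were 61529 and 51048 in mutants and 61099 and 61964 in wild type, lowest in mutant replicate 2. Their part in the results above was not tested.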

How the data were processed

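Reads were handled with STAR 2.4.0a, featureCounts 1.4.5-p1 (Subread), FastQC and DESeq2 on danRer10 (GRCz10), per the submitters' processing notes, which come without settings. The deposited values are a score: gene counts that were scaled in each library by its own factor and then rounded, as read from whole numbers that are skipped or doubled at regular intervals. That spacing put 1 read at 0.983 and 1.01 in mutant replicates 1 and 2, and at 1.09 and 0.898 in wild-type replicates 1 and 2. Exact counts could not be recovered, so no count model was used for the main fit. limma-voom, an alternative, took the deposited values as if they were counts. Approximate reads served only for the Poisson intervals.

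Values were transformed as log2(value + 1), which understates changes of low genes. Genes averaging 10 or more over the 4 libraries were kept. limma-trend (limma 3.58.1, R 4.3.3) compared mutants and wild type with no covariate and with Benjamini-Hochberg adjustment. Variances were drawn toward the trend with 83.6 prior degrees of freedom, so standard errors reflect mostly genes of similar value. The limma-trend fit was also run on simulated data with known changes. Whether those data resembled lowly read members such as alas2, or a library like mutant replicate 2, was not tested. No conclusion about the fit for these genes and libraries was therefore drawn from the simulation. The members, lists and tests were chosen with earlier results of these data known. The text names the 10 members and, from each list, every gene that passed and up to 3 others with the smallest p-values, and the 3 list genes nearest to alas2 over the 4 libraries; other genes were chosen after their values were seen. List genes were matched by symbol or by the current symbol of the gene ID. Python 3.11.15, pandas 2.3.3, scipy 1.17.1 and Matplotlib 3.10.9 were used.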

Additional observations from a re-analysis of the deposited data

How the results depend on the processing

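In each of the 12 alternatives 0 of the haem synthesis genes tested passed, and 0 had an unadjusted p under 0.05. The 12 were another pseudocount, 2 other filters, 3 other scalings, limma-voom, 4 fits that each left out 1 library, and the replicate block. Over all genes 15 passed, against 8, when library totals left out mitochondrial, rRNA and haemoglobin genes, and 6 to 277 passed with 1 library left out, 277 of them without mutant replicate 1; the lone library of a group was there assumed to vary like the other pair. In those 4 fits the 6 haem and iron lists held 0 to 1 called genes, the median of the members ran from -0.029 to 0.096, alas2 minus alas1 from -0.98 to 0.12 and red-cell-specific minus housekeeping from -0.99 to 0.29. For single members signs changed with scaling or with the libraries used. uros was at 0.032 with the totals above, 0.028 with upper-quartile scaling and 0.037 with limma-voom. Over the fits that left out 1 library, log2 fold changes ran from -1.04 (without mutant replicate 1) to 0.38 (without mutant replicate 2) for alas2, and from -0.49 to 0.059 for slc25a37. They ran from -0.059 to 0.26 for alas1, from -0.38 to 0.15 for hmbsb, from -0.61 to 0.56 for uros and from -0.037 to 0.30 for urod, and from -0.69 to 0.12 for cpox, from -0.15 to 0.93 for ppox and from -0.19 to 0.23 for fech; alad stayed above 0. Fewer libraries were left in these fits; otherwise the cause was not tested. The replicate block called 9 genes, 8 of them shared, and changed no member's call. Over genes, same-numbered libraries deviated from their group means with a correlation of 0.009. With 2 libraries in each group, the mutant deviations hold the peculiarities of mutant replicate 2, so this value cannot decide whether libraries were paired. With quantile normalization alas2 was at -1.29, alas2 minus alas1 at -1.44 and red-cell-specific minus housekeeping at -0.80. alas2, hmbsb, cpox and ppox could not be tested at a mean value of at least 50. At about 5 to 20 reads per library, alas2 limits what can be said of the red-cell form.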
